A study of Saccharomyces cerevisiae with 8 samples.

Results

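The late ergosterol genes of budding yeast encode the 10 enzymes that turn lanosterol into ergosterol: ERG11, ERG24, ERG25, ERG26, ERG27, ERG6, ERG2, ERG3, ERG5 and ERG4, in pathway order. They were chosen by name, as the probe sets annotated to these genes, and each of the 10 had 1 probe set, all among the 5496 probe sets tested. RNA was measured on 8 Affymetrix arrays, 2 for each of 4 strains, from 2 separate experiments and cultures per the labels. BY4741 is labelled as the wild type control, A880 as BY4741 carrying a pop2 deletion, A880STM1 as A880 transformed with STM1, and A880STM1K as A880 transformed with STM1 R237K, in which lysine replaces an arginine. POP2 encodes a nuclease subunit of the CCR4-NOT complex, which shortens messenger RNA tails, and STM1 encodes a ribosome-associated protein. For the STM1 genes, neither promoter nor vector is given in the sources used here. Every group shares the same growth: synthetic medium with 2% glucose up to an optical density of 1, followed by 12 hours with 2% glycerol as the carbon source. Strain names stand for the arrays so labelled.

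Ergosterol is the main sterol of fungal membranes and plays the part that cholesterol has in animal cells. Its late synthesis takes place largely in the endoplasmic reticulum, and several steps consume oxygen and depend on haem or on non-haem iron. The transcription factors Upc2 and Ecm22 are known activators of these genes, and sterol depletion or lack of oxygen is known to raise their expression.

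Values are the authors' deposited probe set signals on a linear scale, and changes are log2 differences ± standard error from 1 limma fit over all 8 arrays. A change was called at a Benjamini-Hochberg adjusted p below 0.05 over all tested probe sets. With n = 2 arrays per group, the number of arrays limits the precision. The arrays hold bulk RNA, in which fewer cells with a transcript and less transcript per cell cannot be told apart.

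The labels name POP2 and STM1, and their signals check the strains. POP2 had signals of 883 and 814 on the BY4741 arrays and 0.221 and 0.452, below background, on the A880 arrays. It was detected at 181 and 286 on the arrays labelled A880STM1 and at 255 and 176 on those labelled A880STM1K, which goes against their description as A880 derivatives. STM1 had signals of 2043 and 2566 on BY4741, 2960.3 and 3096 on A880, 9441 and 5027 on A880STM1, and 8697 and 8143 on A880STM1K arrays. BY4741 is a haploid strain of mating type a, and the labelled strains differed in mating genes. The summed signal of 7 a-cell genes was 3069.6 to 3073 on BY4741, 2942 to 3367 on A880, 675 to 761 on A880STM1 and 842 to 940.2 on A880STM1K arrays. For 5 haploid-specific genes it was 3031 to 3243, 3893 to 4024, 329 to 423 and 542 to 653 in the same order, and for 4 alpha-cell genes 642 to 721, 439.98 to 484, 375 to 447 and 856 to 911. Each of these 16 marker genes was above background on at least 1 array of every strain. The a-cell and haploid sums were low on the arrays of both transformed strains, while BY4741 and A880 lay close together in the a-cell sum. Single a-cell genes differed between these 2 strains in both directions, from log2 -1.40 to 1.46 in A880 against BY4741. Of the 7 genes 1 was called higher and 1 lower there, against 7.71% and 6.19% of tested probe sets. The part of these genes in the ergosterol values was not tested. Among the auxotrophic markers URA3 was not above background on either BY4741 array, with 3.32 and 1.14, and had 5062 and 5537 on A880, 4956 and 4315 on A880STM1, and 1850.2 and 1384 on A880STM1K arrays. LEU2, which the usual BY4741 lacks, had 529.8 and 542 on BY4741, 248 and 214 on A880, 7704 and 3412 on A880STM1, and 9187 and 7640.4 on A880STM1K arrays. MET17, also lacking from the usual BY4741, had 713 and 2180 on BY4741, 1385 and 1330 on A880, 2013 and 1210.3 on A880STM1, and 4608 and 7264 on A880STM1K arrays. The part of these markers in the ergosterol values was not tested either. The 2 arrays of a strain held 0 identical values among tested probe sets, and their median absolute log2 difference was 0.144 for BY4741, 0.118 for A880, 0.465 for A880STM1 and 0.388 for A880STM1K.

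ERG11 encodes the lanosterol demethylase, a haem enzyme and the target of azole antifungals. Its signals were 1333 and 915 on BY4741, 2275 and 2590.3 on A880, 2434 and 1868 on A880STM1, and 6771 and 6052 on A880STM1K arrays. Both A880STM1K values lay above the other 6 and both BY4741 values below them, while A880 and A880STM1 overlapped. ERG24 encodes the sterol reductase that acts next. Its signals were 558 and 838 on BY4741, 1017 and 1284 on A880, 622 and 1129 on A880STM1, and 1036 and 1576 on A880STM1K arrays. ERG24 showed the smallest spread of strain means of the 10 genes, log2 0.90, and its A880STM1 arrays, 622 and 1129, overlapped those of each other strain. In every strain replicate 2 was higher than replicate 1. Within each replicate number the ERG24 order was BY4741, A880STM1, A880, A880STM1K.

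ERG25, ERG26 and ERG27 encode the complex that removes the methyl groups at the fourth carbon of the sterol. ERG25, the oxidase of that complex, had signals of 789 and 763 on BY4741, 3043 and 3999.8 on A880, 1651 and 1671 on A880STM1, and 6314 and 4237 on A880STM1K arrays. The 4 strains did not overlap for ERG25, and A880 lay above A880STM1. ERG26, the decarboxylating dehydrogenase, had 223 and 178 on BY4741, 419.7 and 422 on A880, 1003 and 663 on A880STM1, and 1909 and 3576 on A880STM1K arrays. The strains were again separate, but here A880STM1 lay above A880, and the 2 A880STM1K arrays were far apart. ERG27, the ketoreductase of the complex, had 591 and 541 on BY4741, 1006 and 1046 on A880, 732 and 905 on A880STM1, and 2139 and 2488 on A880STM1K arrays. Its order was that of ERG25, again with no overlap between strains.

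ERG6 encodes the sterol methyltransferase, which adds the side-chain methyl group that cholesterol lacks. Its signals were 508 and 376 on BY4741, 751 and 1379 on A880, 2102 and 2532 on A880STM1, and 3748 and 3779 on A880STM1K arrays. ERG6 thus had separate strains in the order BY4741, A880, A880STM1, A880STM1K. ERG2, the isomerase that moves the ring double bond, had 574 and 627 on BY4741, 967 and 1119 on A880, 1325 and 1182 on A880STM1, and 2177 and 2611 on A880STM1K arrays. ERG2 followed the same order with no overlap, A880 and A880STM1 lying close to each other.

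ERG3, ERG5 and ERG4 act last. ERG3 encodes the ring desaturase, a non-haem iron enzyme, and had signals of 252 and 213 on BY4741, 906 and 1748 on A880, 339.6 and 555 on A880STM1, and 3000.0 and 2230.0 on A880STM1K arrays. For ERG3 the A880 arrays lay above both A880STM1 arrays. ERG5, the side-chain desaturase and like ERG11 a haem enzyme, had 107 and 138 on BY4741, 685 and 1276 on A880, 615 and 828 on A880STM1, and 1992 and 2789 on A880STM1K arrays. It showed the widest spread of strain means of the 10 genes, log2 4.27, with A880 and A880STM1 overlapping between the extremes. ERG4, the reductase of the last step, had 266 and 236 on BY4741, 305 and 382 on A880, 309.9 and 362 on A880STM1, and 1929 and 1508 on A880STM1K arrays. The first 6 of these values lay close together and the 2 A880STM1K values far above them.

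**Figure D1:**
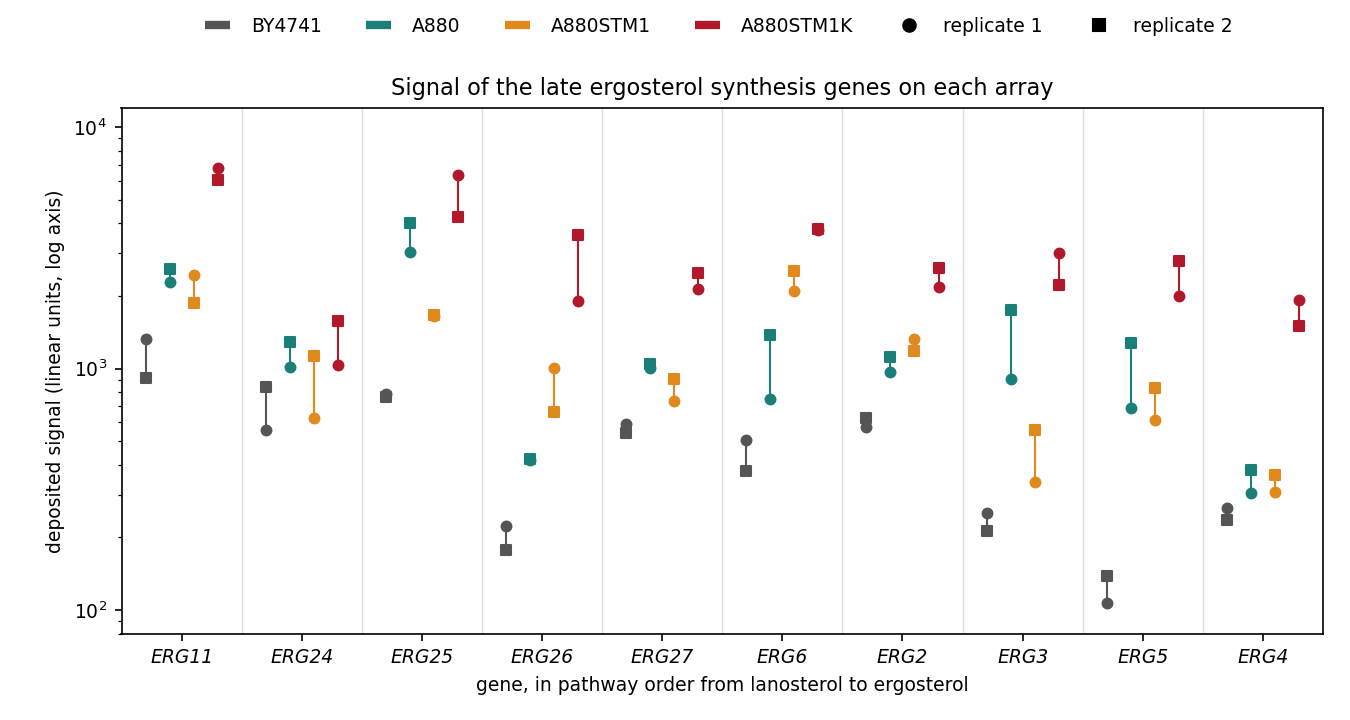
Deposited signal of the 10 late ergosterol genes on a log axis, in pathway order, with 1 point per array, circles for replicate 1 and squares for replicate 2, and a line joining the 2 arrays of a strain. For 9 genes both A880STM1K points (red) lie above and both BY4741 points (grey) below all others, and ERG24 is the exception.

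Across the series, 9 of the 10 genes had both BY4741 arrays below and both A880STM1K arrays above the other 6, against 4.42% of all tested probe sets. By geometric means all 10 genes were lowest in BY4741 and highest in A880STM1K. They split in the middle: ERG11, ERG24, ERG25, ERG27, ERG3, ERG5 and ERG4, 7 genes, had A880 above A880STM1 (an order found in 6.46% of tested probe sets), and ERG26, ERG6 and ERG2, 3 genes, had A880STM1 above A880 (5.31%). The middle order rests on overlapping values for ERG11, ERG24, ERG5 and ERG4. Averaged over the 10 genes, each centred on its own mean, log2 signal was -1.30 and -1.38 on BY4741, -0.17 and 0.25 on A880, -0.20 and -0.033 on A880STM1, and 1.37 and 1.46 on A880STM1K arrays.

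The comparison of A880 with BY4741 addresses which transcripts differ in the strain labelled as lacking POP2. All 10 late ergosterol genes had higher signals on both A880 arrays than on both BY4741 arrays, which held for 41.5% of tested probe sets, and 7 of 10 were called higher, against 7.71% of tested probe sets. ERG5 rose by log2 2.94 ± 0.33 (adjusted p = 0.000645), the sixth largest rise of all tested probe sets, ERG3 by 2.44 ± 0.35 (adjusted p = 0.00218) and ERG25 by 2.17 ± 0.24 (adjusted p = 0.000634). Smaller rises were called for ERG6, log2 1.22 ± 0.29 (adjusted p = 0.0228), ERG11, 1.14 ± 0.24 (adjusted p = 0.0149), ERG27, 0.86 ± 0.22 (adjusted p = 0.0282), and ERG2, 0.79 ± 0.22 (adjusted p = 0.0350). The 4 oxygen-consuming enzymes ERG5, ERG3, ERG25 and ERG11 were thus among the 5 largest changes of the 10, a grouping chosen after the values were seen. ERG26 (log2 1.08, 95% interval 0.35 to 1.80, adjusted p = 0.0526), ERG24 (0.74, -0.010 to 1.49, adjusted p = 0.171) and ERG4 (0.45, -0.13 to 1.02, adjusted p = 0.279) did not pass. With the 4 arrays compared alone, where 2992 of all tested probe sets were called, ERG26 (adjusted p = 0.00161) and ERG24 (0.0225) passed as well. The median change was log2 1.11, against 0.017 over all tested probe sets.

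Calls for ERG5, ERG3 and ERG25 held with any 1 array left out, and the other calls of this comparison did not. Each such fit leaves 1 array in a strain, and calls over all tested probe sets fell as well. The median change of the 10 genes then lay between log2 0.94 and 1.32. ERG27 (log2 0.79 to 0.92) and ERG2 (0.69 to 0.90) lost their calls without any 1 of the 4 arrays. ERG11 (0.86 to 1.41) lost its call without each of them other than BY4741 replicate 1. ERG6 (0.78 to 1.66) lost its call without each of them other than A880 replicate 1, its change being lowest without A880 replicate 2. Over all tested probe sets 424 were called higher and 340 lower, or 413 and 554 with equal array medians, a scaling that put the median of all tested changes at log2 -0.10 and ended the calls of ERG11 (adjusted p = 0.0591) and ERG2 (0.0881).

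**Figure D2:**
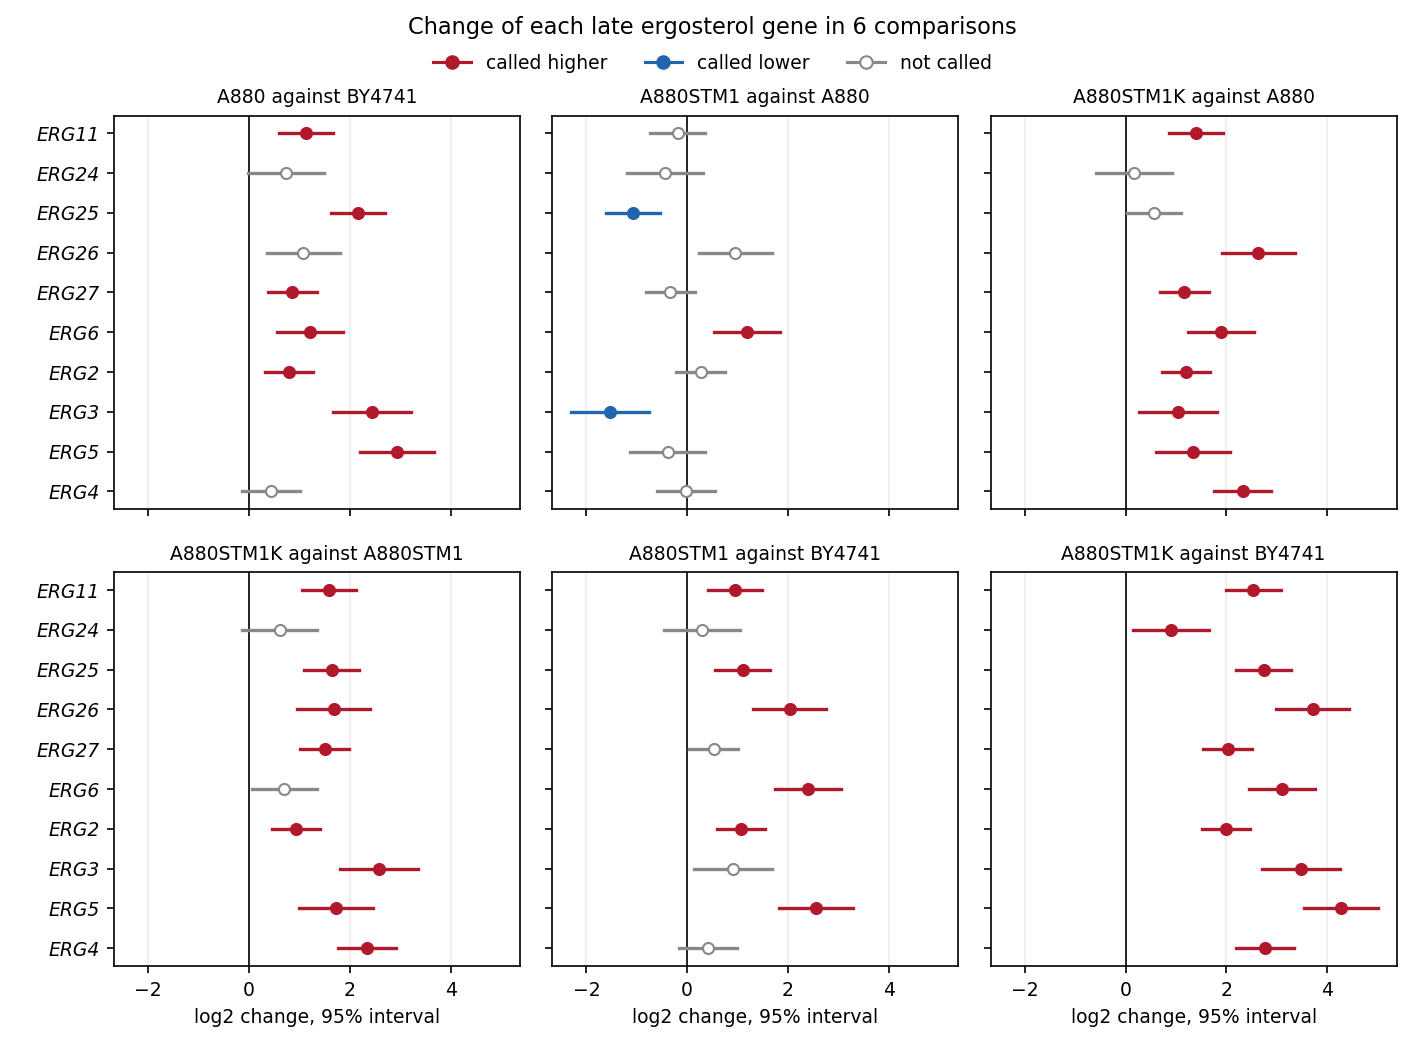
Log2 change of each late ergosterol gene in the 6 comparisons, with the 95% interval of the limma fit, filled points for calls at adjusted p below 0.05 and open points for genes not called. In A880STM1K against BY4741 all 10 genes are called higher, while in A880STM1 against A880 ERG25 and ERG3 lie below 0 and ERG6 above it.

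The comparison of A880STM1 with A880 addresses STM1 added to the deletion strain, although the arrays labelled A880STM1 did show POP2 signal. Here the late ergosterol genes did not move together: 1 of 10 was called higher and 2 lower, against 6.82% and 13.1% of tested probe sets. ERG3 fell by 1.54 on the log2 scale (SE 0.35, adjusted p = 0.0176) and ERG25 by 1.07 (SE 0.24, adjusted p = 0.0176), while ERG6 rose by log2 1.18 ± 0.29 (adjusted p = 0.0232). ERG26 stood at log2 0.96 (95% interval 0.23 to 1.68, adjusted p = 0.0610), with both A880STM1 arrays above both A880 arrays. The 2 genes called lower encode the 2 non-haem iron enzymes among the 10, as a description chosen after the values were seen. Over the 8 arrays ERG25 and ERG3 had a Pearson correlation of 0.98, as did ERG26 with ERG2, and the median pair of members had 0.87. This comparison shares the A880 arrays with A880 against BY4741, where ERG25 and ERG3 were called higher. ERG11 (log2 -0.19, 95% interval -0.73 to 0.35), ERG24 (-0.45, -1.20 to 0.30), ERG27 (-0.33, -0.82 to 0.15), ERG2 (0.27, -0.21 to 0.74), ERG5 (-0.39, -1.13 to 0.34) and ERG4 (-0.028, -0.60 to 0.54) were not called. The median change was log2 -0.26, and that of all tested probe sets -0.27. In the same comparison 5 of 7 a-cell and 5 of 5 haploid-specific genes were called lower, and their part in these changes was not tested.

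The 3 calls were sensitive to single arrays. With A880 replicate 1 dropped, ERG3 alone was called, and with A880 replicate 2 dropped, ERG6 alone. With A880STM1 replicate 2 dropped the 3 calls were ERG25, ERG3 and ERG26, and with A880STM1 replicate 1 dropped limma called 0 of 10, of which 3 had an unadjusted p under 0.05. ERG25 was called in 1 of these 4 settings (adjusted p elsewhere 0.0637 to 0.176), ERG3 in 2 (elsewhere 0.136 and 0.171) and ERG6 in 1 (elsewhere 0.0681 to 0.231), the change of ERG6 being log2 0.74 without A880 replicate 1. ERG26 passed with A880STM1 replicate 2 dropped (log2 1.25, adjusted p = 0.0407) and with quantile normalization (1.32, adjusted p = 0.0300). With equal array medians the change of ERG25 was log2 -0.68 (adjusted p = 0.106), the signs of ERG11, ERG27 and ERG4 turned, that of ERG4 also with quantile normalization, and the calls over all tested probe sets went from 375 higher and 719 lower to 630 and 321, with a median change of log2 0.12 (547 and 521 with quantile normalization).

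By the labels, the comparison of A880STM1K with A880 addresses the arginine-to-lysine form of STM1 in the A880 background. POP2 signal on the arrays labelled A880STM1K again goes against that background. 8 of 10 late ergosterol genes were called higher, against 19.1% of tested probe sets, and all 10 changes were positive. The largest rises were those of ERG26 by log2 2.63 ± 0.33 (adjusted p = 0.000200), ERG4 by 2.32 ± 0.26 (adjusted p = 0.000110) and ERG6 by 1.89 ± 0.29 (adjusted p = 0.000684). ERG11 rose by log2 1.40 ± 0.24, ERG5 by 1.33 ± 0.33, ERG2 by 1.20 ± 0.22, ERG27 by 1.17 ± 0.22 and ERG3 by 1.04 ± 0.35, with adjusted p between 0.00125 and 0.0313. ERG25 (log2 0.57, 95% interval 0.029 to 1.11, adjusted p = 0.0774) and ERG24 (0.16, -0.59 to 0.91, adjusted p = 0.718) did not pass. ERG4, which had shown no call between A880 and BY4741, was thus 4.99-fold higher here, and ERG25, with a 4.50-fold rise there, was 1.48-fold higher. The 2 comparisons share the A880 arrays. Of the markers, 5 of 7 a-cell and 5 of 5 haploid-specific genes were called lower here and 3 of 4 alpha-cell genes higher, against 28% of tested probe sets called lower and 19.1% higher, and their part was not tested. The median change was log2 1.26, against -0.17 over all tested probe sets.

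Among these calls, ERG3 no longer passed with A880 replicate 1 dropped (log2 0.56, adjusted p = 0.311), with A880STM1K replicate 1 dropped (0.83, adjusted p = 0.148) or with the 4 arrays compared alone (adjusted p = 0.0735). ERG5 did not pass with A880 replicate 1 dropped (log2 0.88, adjusted p = 0.108). ERG25 passed without A880STM1K replicate 2 (log2 0.86, adjusted p = 0.0156) and with equal array medians (0.92, adjusted p = 0.0210), where the calls over all tested probe sets went from 1051 higher and 1538 lower to 1610 and 1099 (1427 and 1516 with quantile normalization) and the median of all tested changes from log2 -0.17 to 0.18.

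The direct comparison of A880STM1K with A880STM1 tests whether the 2 transformed strains differ. 8 of 10 late ergosterol genes were called higher in A880STM1K, against 17.9% of tested probe sets. ERG3 rose by log2 2.58 ± 0.35 (adjusted p = 0.000442), ERG4 by 2.35 ± 0.26 (adjusted p = 0.000144), ERG5 by 1.72 ± 0.33 (adjusted p = 0.00294), ERG26 by 1.68 ± 0.33 (adjusted p = 0.00310) and ERG25 by 1.64 ± 0.24 (adjusted p = 0.000717). ERG11 rose by log2 1.59 ± 0.24, ERG27 by 1.50 ± 0.22 and ERG2 by 0.93 ± 0.22, with adjusted p between 0.000653 and 0.00791. ERG6 (log2 0.71, 95% interval 0.054 to 1.36, adjusted p = 0.0871) and ERG24 (0.61, -0.14 to 1.36, adjusted p = 0.186) did not pass, although both A880STM1K arrays exceeded both A880STM1 arrays for ERG6. The median change was log2 1.61, against 0.097 over all tested probe sets. These 8 calls held without any 1 of the 4 arrays. In fits restricted to the 4 arrays compared, ERG2 had adjusted p = 0.0640.

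Neither STM1 (log2 0.29, 95% interval -0.34 to 0.92, adjusted p = 0.454) nor POP2 (-0.10, -1.10 to 0.89, adjusted p = 0.876) was called between the 2 transformed strains. The a-cell, haploid and alpha-cell markers, given above, were higher on the A880STM1K arrays than on the A880STM1 arrays in summed signal. Called higher were 2 of 7 a-cell, 1 of 5 haploid and 3 of 4 alpha-cell genes, against 17.9% of tested probe sets. Of the a-cell changes 5 of 7 were positive, and the lowest was log2 -0.80. Of the 4 auxotrophic markers 1 was called higher and 1 lower, against 17.9% and 17.1% of tested probe sets. Their changes ranged from log2 -1.53 for URA3 to 1.89 for MET17. The part of these markers in this comparison was not tested.

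Against BY4741, the arrays labelled A880STM1K, on which POP2 was detected, had all 10 late ergosterol genes called higher, where 21.2% of tested probe sets were. ERG5 was 19.3-fold higher (log2 4.27 ± 0.33, adjusted p = 1.17e-05), the fifth largest rise of all tested probe sets, ERG26 13.1-fold (3.71 ± 0.33, adjusted p = 2.24e-05) and ERG3 11.2-fold (3.48 ± 0.35, adjusted p = 4.51e-05). ERG6 was 8.61-fold, ERG4 6.81-fold, ERG25 6.67-fold, ERG11 5.80-fold, ERG27 4.08-fold and ERG2 3.98-fold higher, with adjusted p between 2.27e-05 and 6.54e-05. ERG24 was 1.87-fold higher (log2 0.90 ± 0.34, adjusted p = 0.0469), a call lost with A880STM1K replicate 2 dropped (log2 0.60, adjusted p = 0.231), with BY4741 replicate 1 dropped (0.61, adjusted p = 0.286), without the intensity trend (adjusted p = 0.0639) and with the 4 arrays compared alone (0.0684). The median change was log2 2.75, against -0.11 over all tested probe sets. Over all tested probe sets 1164 were called higher and 1556 lower, or 1489 and 1306 with equal array medians.

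The arrays labelled A880STM1, also with POP2 detected, had 6 of 10 called higher, than on BY4741, against 5.40% of tested probe sets, with a median of log2 1.01 against -0.24. ERG5 rose by log2 2.55 ± 0.33 (adjusted p = 0.00140), ERG6 by 2.40 ± 0.29 (adjusted p = 0.00109) and ERG26 by 2.03 ± 0.33 (adjusted p = 0.00462), followed by ERG25 at 1.10 ± 0.24 (adjusted p = 0.0214), ERG2 at 1.06 ± 0.22 (adjusted p = 0.0159) and ERG11 at 0.95 ± 0.24 (adjusted p = 0.0363). ERG3 (log2 0.91, 95% interval 0.14 to 1.68, adjusted p = 0.102), ERG27 (0.53, 0.040 to 1.01, adjusted p = 0.122), ERG4 (0.42, -0.15 to 0.99, adjusted p = 0.275) and ERG24 (0.29, -0.46 to 1.04, adjusted p = 0.560) did not pass. ERG5 and ERG6 kept their calls with any 1 array left out. Dropping BY4741 replicate 1 or BY4741 replicate 2 left 3 calls, dropping A880STM1 replicate 1 left 2, and dropping A880STM1 replicate 2 left 6. ERG11, ERG25 and ERG2 lost their calls in each of the first 3 of these settings (adjusted p between 0.0706 and 0.305) and ERG26 in the third (0.0798), while ERG27 passed under both other scalings (0.0168 and 0.0350). Calls over all tested probe sets went from 297 higher and 346 lower to 358 and 193 with equal array medians.

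**Figure D3:**
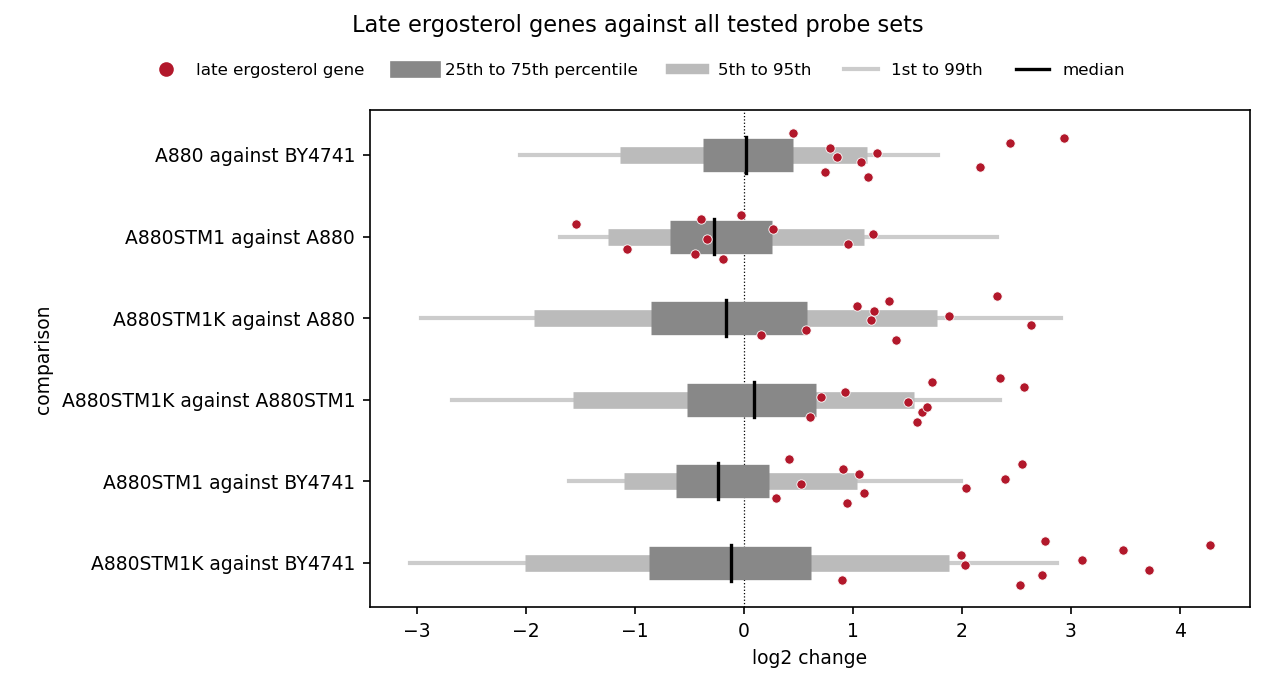
Log2 change of the 10 late ergosterol genes (red points) in each comparison, over the percentiles of all 5496 tested probe sets (dark bar for the 25th to the 75th, light bar for the 5th to the 95th, line for the 1st to the 99th, black tick for the median). In A880STM1 against A880 the points lie on both sides of the median of all tested probe sets, and in the other comparisons all 10 lie to its right.

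How alike the 10 profiles were is given as a description over the 8 arrays, which share the strain groups. Among the 45 pairs of members the median Pearson correlation of log2 signal was 0.87, from 0.53 for ERG24 with ERG26 to 0.98 for ERG26 with ERG2. ERG24 had the lowest correlation with the mean of the other 9, 0.70, while ERG11, ERG2 and ERG27 had 0.97 each. Outside the members, the 5 tested genes closest to the mean profile were APM4, a clathrin adaptor subunit (r = 0.99, signals from 657 to 1110 over the arrays), CHC1, the clathrin heavy chain (r = 0.99, 952 to 4028), MYO4, a myosin that carries messenger RNA to the bud (r = 0.99, 138 to 983), HEM12, a haem synthesis enzyme (r = 0.99, 359.6 to 1978), and BUD4, a bud-site protein (r = 0.98, 95.7 to 504). The profile of APM4 was alike in shape but narrow, with log2 0.73 between A880STM1K and BY4741.

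The 12 genes of the early sterol pathway, from acetyl-CoA to lanosterol, showed most of their calls in A880STM1K. In A880 against BY4741, 2 of 12 were called higher, against 7.71% of tested probe sets, ERG12, mevalonate kinase, by log2 1.13 ± 0.23 (adjusted p = 0.0112) and ERG1, the oxygen-consuming squalene epoxidase, by 1.04 ± 0.27 (adjusted p = 0.0288), and neither was called with any 1 array left out (adjusted p between 0.0817 and 0.280). With quantile normalization 3 of 12 were called higher and 1 lower, where 723 and 660 of 5496 tested probe sets were. With the 4 arrays compared alone 7 were called higher and 3 lower, where 1629 and 1363 of 5496 were. In that fit 9 of 10 late genes were called higher. The median was log2 0.34, against 1.11 for the late genes. In A880STM1K against A880, 9 of 12 were called higher, against 19.1% of tested probe sets, at a median of log2 1.00, among them MVD1, the mevalonate pathway decarboxylase, by 2.96 ± 0.24 (adjusted p = 1.75e-05), ERG13, the HMG-CoA synthase, by 1.57 ± 0.26 (adjusted p = 0.000959), ERG1 by 1.39 ± 0.27 (adjusted p = 0.00204) and ERG7, lanosterol synthase, by 1.34 ± 0.21 (adjusted p = 0.000757). With 1 of the 4 arrays dropped the count lay between 6 and 9. In A880STM1K against A880STM1, 8 of 12 were called higher, against 17.9% of tested probe sets, at a median of log2 1.07, and in A880STM1K against BY4741 10 of 12, against 21.2%, at 1.30, the other 2 being HMG2, the second HMG-CoA reductase, and IDI1, the isopentenyl diphosphate isomerase. In A880STM1 against A880, ERG9, squalene synthase, was called higher (log2 0.79 ± 0.21, adjusted p = 0.0284) and ERG10, the first enzyme, lower (-0.70 ± 0.21, adjusted p = 0.0443, and -0.31, adjusted p = 0.368, with equal array medians). Both calls ended when A880 replicate 1, A880 replicate 2 or A880STM1 replicate 1 was dropped. With any 1 array left out the changes were log2 0.77 to 0.82 for ERG9 and -0.84 to -0.56 for ERG10. With quantile normalization 3 of 12 were called higher and 1 lower, where 547 and 521 of 5496 tested probe sets were. A880STM1 against BY4741 had 2 of 12 called higher, against 5.40%, MVD1 and ERG12, but limma called 0 with BY4741 replicate 1, BY4741 replicate 2 or A880STM1 replicate 1 dropped (2, 4 and 6 of 12 at an unadjusted p under 0.05), and 5 and 4 under the other scalings. The early and late lists were not tested against each other.

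The late enzymes are served directly by 5 proteins: NCP1, the reductase that hands electrons to ERG11 and ERG5, ERG28, which tethers the demethylation complex, DAP1, a haem-binding partner of ERG11, and CYB5 with CBR1, the cytochrome b5 electron chain. None of these 5 was called by limma in A880 against BY4741, where 1 had an unadjusted p under 0.05, or in A880STM1 against A880, likewise with 1. With the 4 arrays compared alone, 1 of the 5 was called higher and 1 lower in A880 against BY4741, where 1629 and 1363 of 5496 tested probe sets were. In A880STM1K against A880, 4 of 5 were called higher, against 19.1% of tested probe sets, NCP1 by log2 1.77 ± 0.25 (adjusted p = 0.000403), ERG28 by 1.70 ± 0.32 (adjusted p = 0.00193), CYB5 by 1.19 ± 0.24 (adjusted p = 0.00242) and CBR1 by 0.75 ± 0.21 (adjusted p = 0.0154), the last call being lost without either A880 array (adjusted p = 0.118 and 0.0974). DAP1 had log2 -1.04 (95% interval -2.05 to -0.026, adjusted p = 0.0843), and signals of 342 and 559 on BY4741, 532 and 991 on A880, 436 and 855 on A880STM1, and 245 and 508 on A880STM1K arrays. In A880STM1K against A880STM1, NCP1 (log2 1.90 ± 0.25, adjusted p = 0.000356) and CYB5 (0.94 ± 0.24, adjusted p = 0.0112, and 0.0757 with the 4 arrays alone) were called higher, against 17.9% of tested probe sets. NCP1 stood at 1047 and 835 on BY4741, 932 and 1034 on A880, 752 and 1065 on A880STM1, and 3765 and 2969 on A880STM1K arrays, so that A880STM1K alone lay apart from the others. CYB5 was the 1 of 5 called higher in A880STM1 against BY4741, where 5.40% of tested probe sets were (log2 0.98 ± 0.24, adjusted p = 0.0278, and 0.0798 to 0.204 with either BY4741 array or A880STM1 replicate 1 dropped), and NCP1, ERG28 and CYB5 were the 3 of 5 in A880STM1K against BY4741, where 21.2% were.

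**Figure D4:**
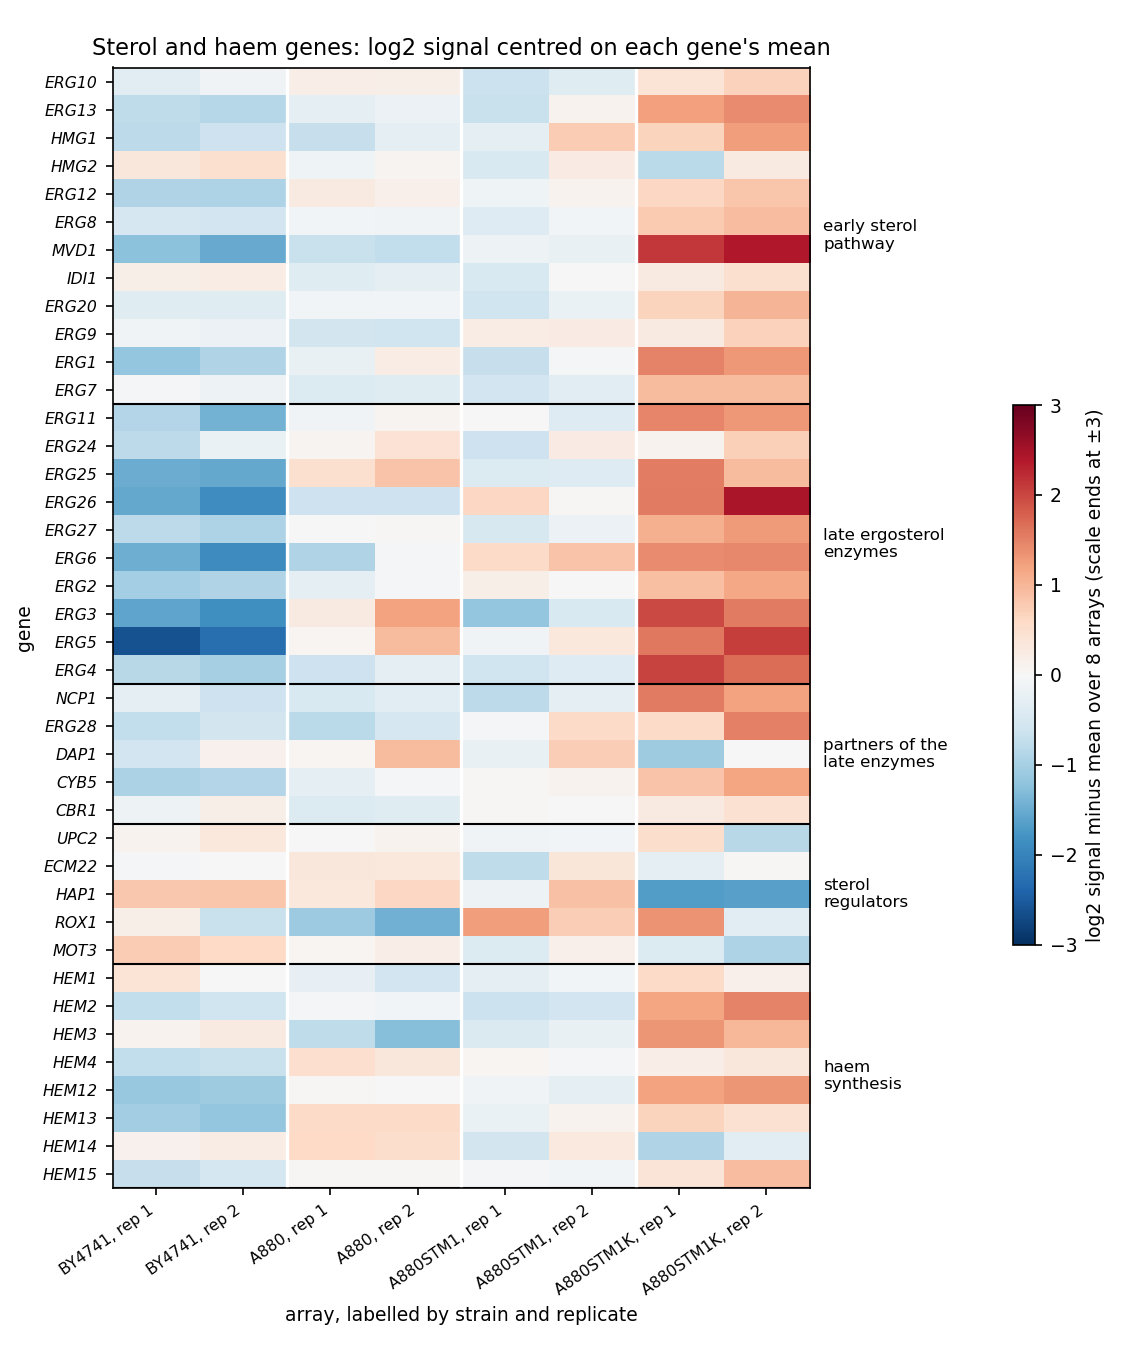
Log2 signal of sterol and haem genes on each array, centred on each gene's mean over the 8 arrays (blue lower, red higher, scale from -3 to 3), with the early pathway, the late enzymes, their partners, the regulators and haem synthesis in blocks. Except for ERG24, the late enzymes are lowest on the BY4741 arrays and highest on the A880STM1K arrays, NCP1 is high on the A880STM1K arrays, and HAP1 is low there.

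Of 5 regulators of these genes, 2 were called in no comparison and 3 in at least 1. UPC2, the sterol-sensing activator, had signals of 149 and 172 on BY4741, 139 and 148 on A880, 129 and 130.3 on A880STM1, and 201 and 77.5 on A880STM1K arrays, and was called in 0 of 6 limma comparisons (lowest adjusted p = 0.512). ECM22, its relative, was called in 0 of 6 as well (lowest adjusted p = 0.262), with signals between 323 and 704. At an unadjusted p under 0.05 neither passed in any comparison. Single arrays bear on both: with A880STM1K replicate 1 dropped, UPC2 was called lower in A880STM1K against A880 (log2 -0.89, adjusted p = 0.0442) and against BY4741 (-1.05, adjusted p = 0.0225), and with A880STM1 replicate 2 dropped, ECM22 was lower in A880STM1 against A880 (-1.09, adjusted p = 0.0127) and against BY4741 (-0.75, adjusted p = 0.0386). With the 4 arrays compared alone, ECM22 was called higher in A880 against BY4741 (log2 0.34, adjusted p = 0.0301), a fit that called 2992 of 5496 tested probe sets. HAP1, the haem-responsive activator, which in S288C-derived laboratory strains carries a transposon insertion, had 1488 and 1507 on BY4741, 1069 and 1319 on A880, 769 and 1565 on A880STM1, and 268 and 274 on A880STM1K arrays. HAP1 fell in A880STM1K by 2.13 on the log2 scale against A880 (SE 0.31, adjusted p = 0.000477), by 2.02 against A880STM1 (SE 0.31, adjusted p = 0.000880) and by 2.47 against BY4741 (SE 0.31, adjusted p = 0.000161), calls that held with any 1 array left out. HAP1 was also called lower in A880STM1 against A880 (log2 -0.63, adjusted p = 0.0469) and against BY4741 (-0.96, adjusted p = 0.0160) with A880STM1 replicate 2 dropped. ROX1, the repressor of hypoxic genes, rose by log2 2.27 ± 0.47 in A880STM1 (adjusted p = 0.0130) and by 1.79 ± 0.47 in A880STM1K (adjusted p = 0.0106) against A880. Its 2 A880STM1K arrays had 3366 and 1058, and the second call ended with A880STM1K replicate 1 dropped (log2 0.95, adjusted p = 0.0720) or with the 4 arrays alone (adjusted p = 0.0563), the first with A880 replicate 2 dropped (2.10, adjusted p = 0.0681) or A880STM1 replicate 1 dropped (2.00, adjusted p = 0.134). With the 4 arrays compared alone, ROX1 was also called lower in A880 (log2 -1.02, adjusted p = 0.0183) and higher in A880STM1 (1.25, adjusted p = 0.0338) against BY4741. These 2 fits called 2992 and 607 of 5496 tested probe sets. The A880STM1K arrays of ROX1 gave further calls 1 at a time: with replicate 2 dropped it was higher than in BY4741 (log2 1.61, adjusted p = 0.00871), and with replicate 1 dropped lower than in A880STM1 (-1.31, adjusted p = 0.0317). MOT3, a repressor that acts on ergosterol genes, fell by 1.36 on the log2 scale in A880STM1K against BY4741 (SE 0.32, adjusted p = 0.00556), a call lost without BY4741 replicate 1 (adjusted p = 0.0595). MOT3 was also called lower in A880STM1K against A880 with quantile normalization (log2 -0.57, adjusted p = 0.0439), without the intensity trend (-0.80, adjusted p = 0.0426) and with A880STM1K replicate 1 dropped (-1.06, adjusted p = 0.0292). Further lower calls of MOT3 were in A880STM1K against A880STM1 with quantile normalization (adjusted p = 0.0374), in A880STM1 against BY4741 with A880STM1 replicate 2 dropped (0.0320) and in A880 against BY4741 with the 4 arrays alone (0.0153).

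Haem is the cofactor of ERG11 and ERG5, and 3 of 8 haem synthesis genes were called higher and 1 lower in A880 against BY4741, where 7.71% and 6.19% of tested probe sets were. HEM13, coproporphyrinogen oxidase, rose by log2 1.68 ± 0.24 (adjusted p = 0.00218), a call that held with any 1 array left out, while the 4 calls fell to 1, HEM13, in each of these settings. In A880STM1K against A880, 5 of 8 were called higher and 1 lower, against 19.1% and 28% of tested probe sets (3 higher and none lower with A880 replicate 1 or A880 replicate 2 dropped), and against A880STM1 4 of 8 were higher, against 17.9%. A880STM1 had 2 of 8 higher against BY4741, where 5.40% were (none with BY4741 replicate 1 or BY4741 replicate 2 dropped, where limma gave 2 of 8 an unadjusted p under 0.05, and 1 with A880STM1 replicate 1 dropped) and 0 of 8 by limma against A880, where 2 had an unadjusted p under 0.05. In A880STM1K against BY4741, 6 of 8 were called higher, against 21.2% of tested probe sets, among them HEM12, the uroporphyrinogen decarboxylase, by log2 2.37 ± 0.21 (adjusted p = 2.47e-05) and HEM2, which joins aminolevulinate molecules, by 2.01 ± 0.21 (adjusted p = 5.78e-05). HEM14, the protoporphyrinogen oxidase, went the other way in A880STM1K against A880, at log2 -1.18 ± 0.31 (adjusted p = 0.0109), a call that ended with A880 replicate 1, A880 replicate 2 or A880STM1K replicate 1 dropped (adjusted p between 0.0513 and 0.0673).

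Low oxygen is known to raise both ergosterol and hypoxic genes, so 8 hypoxic genes were read beside them. The part of oxygen in the ergosterol values was not tested. In A880 against BY4741, 2 of 8 were called higher, against 7.71% of tested probe sets, HEM13 and the fatty acid desaturase OLE1 (log2 0.99 ± 0.23, adjusted p = 0.0209, and 0.0982 with equal array medians). COX5B, a cytochrome oxidase subunit made in low oxygen, was the 1 of 8 called lower (-1.38 ± 0.36, adjusted p = 0.0294), against 6.19%. The call of OLE1 held with A880 replicate 1 dropped and in no other of these 4 settings, and that of COX5B in none of them (adjusted p between 0.0820 and 0.299 for both). COX5B was highest on the A880STM1 arrays, with signals of 731 and 559 on BY4741, 211 and 288 on A880, 4697 and 3213 on A880STM1, and 607 and 1267 on A880STM1K arrays. COX5B (log2 3.98 ± 0.36, adjusted p = 0.000107) and CYC7, the cytochrome c of low oxygen (1.77 ± 0.23, adjusted p = 0.00116), were the 2 of 8 called higher in A880STM1 against A880, against 6.82% of tested probe sets. In that comparison the late ergosterol genes did not move together. In A880STM1K against A880, 5 of 8 were called higher, against 19.1% of tested probe sets, with 2 left when A880 replicate 1 was dropped and 3 when A880 replicate 2 or A880STM1K replicate 1 was, in A880STM1 against BY4741 4 of 8, against 5.40% (2 without either BY4741 array or A880STM1 replicate 1), and in A880STM1K against BY4741 3 of 8, against 21.2%. DAN1, a cell wall mannoprotein of anaerobic growth, had signals between 8.73 and 26.1 over the 8 arrays, and ANB1, the hypoxic translation factor, between 94.6 and 194. The DAN1 values were near background, the lowest being 1.16 times it. In A880STM1K against A880STM1, where 8 late ergosterol genes were called higher, 1 of 8 hypoxic genes was called, COX5B, which fell by 2.15 on the log2 scale (SE 0.36, adjusted p = 0.00132), against 17.1% of tested probe sets called lower. Of the 8 changes 7 were positive, and for 5 genes both A880STM1K arrays lay above both A880STM1 arrays. A second, higher call appeared with equal array medians and with A880STM1 replicate 1, A880STM1 replicate 2 or A880STM1K replicate 2 dropped, and with quantile normalization 2 were higher.

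In A880STM1K against BY4741, 3 of 11 sterol storage and transport genes were called higher and 3 lower. These shares lay near the 21.2% and 28.3% of all tested probe sets. ATF2, which acetylates sterols, rose by log2 2.92 ± 0.48 (adjusted p = 0.000761), YEH1, a sterol ester hydrolase, by 1.29 ± 0.27 (adjusted p = 0.00285) and ARE2, the main sterol esterifying enzyme, by 0.95 ± 0.23 (adjusted p = 0.00606, and 0.0640 without BY4741 replicate 2). NPC2, a sterol carrier of the vacuole, fell by 1.03 on the log2 scale (SE 0.21, adjusted p = 0.00277). With BY4741 replicate 2 dropped, 3 of these 6 calls were made. In A880 against BY4741 the 1 call of 11 was NPC2, lower, against 6.19% of tested probe sets (lost with any 1 array dropped). In A880STM1 against A880 it was ATF2, higher, against 6.82% (lost with either A880 array or A880STM1 replicate 1 dropped). In A880STM1K against A880, 3 of 11 were called higher and 1 lower, where 19.1% and 28% of tested probe sets were called. A880STM1K against A880STM1, where 17.9% were called higher, had 3 higher calls (1 with the 4 arrays alone). The limma fit made 0 in A880STM1 against BY4741, where 4 of 11 had an unadjusted p under 0.05 and where 4 were called lower with A880STM1 replicate 2 dropped. Of the sterol importers used when oxygen is lacking, AUS1 was called in 0 of 6 comparisons, with signals from 177 to 309. PDR11, with signals from 103 to 312, was called lower in A880STM1K against BY4741 (log2 -1.02, adjusted p = 0.0386 by limma) and in no other comparison.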

How the data were processed

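The deposited values are microarray intensity per probe set on a linear scale, 1 column per array, made by the authors with MAS5, per the submitters' processing notes; its version is not given in the sources used here. Trimmed by 2% at each end, the arrays had means of 500.15 to 500.26. Labelling started from 10 µg of total RNA, per the labels. Background was set, for each array, at the 90th percentile over the 1746 probe sets of another yeast species. Of 5498 probe sets with 1 S. cerevisiae gene, 5496 lay above it on at least 2 arrays and were tested on log2 signal with limma 3.58.1 in R 4.3.3 (4 group means, eBayes with intensity trend, 4 residual degrees of freedom). Gene names came from the platform annotation and the R64 gene table. The members, lists and tests were chosen with earlier results of these data known. By rule, every member is named, as are POP2, STM1 and the regulators, up to 4 called genes of each list per comparison, and the 5 genes with the most similar profile; DAP1, HMG2, IDI1, DAN1, ANB1, AUS1 and PDR11 were named after their values were seen. Alternatives covered scaling, background, pseudocount, filters, trend, replicate block, the 4 arrays compared and each array left out. The code was tested on simulated data.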

Additional observations from a re-analysis of the deposited data

How the results depend on the processing

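Counts of called late ergosterol genes stayed within 1.5 times under all 9 alternatives other than leaving out arrays. With 1 array left out, the counts ranged from 3 to 4 for A880 against BY4741 (7 with all arrays), from 0 to 3 for A880STM1 against A880 (3), from 6 to 9 for A880STM1K against A880 (8), from 2 to 6 for A880STM1 against BY4741 (6) and from 9 to 10 for A880STM1K against BY4741 (10), and were 8 in each case for A880STM1K against A880STM1 (8). Leaving 1 array out leaves 1 array in that strain, and calls over all tested probe sets also changed, as given below. The cause was not tested. In A880STM1 against A880 the sign turned with equal array medians for the median of the 10 genes (log2 0.13), ERG11 (0.20), ERG27 (0.054) and ERG4 (0.36), and with quantile normalization for ERG4 (0.42), none of them called. With arrays left out, uncalled changes that crossed 0 in that comparison ranged from log2 -0.84 to 0.058 for ERG5, -0.19 to 0.13 for ERG4 and -0.38 to 0.0035 for ERG11. For ERG24 they ranged from -0.14 to 0.46 in A880STM1K against A880 and from -0.14 to 0.72 in A880STM1 against BY4741.

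The replicate number as a block raised the count from 7 to 9 in A880 against BY4741 (ERG26 and ERG24 added, adjusted p = 0.0362 and 0.0435) and from 3 to 4 in A880STM1 against A880 (ERG26, adjusted p = 0.0475), and left the other 4 counts at 8, 8, 6 and 10. Deviations of same-numbered arrays from their strain means had correlations from 0.037 to 0.29 between strains, all 6 positive and 1 of them under 0.1. The labels do not say that a number marks a shared experiment. Whether the numbers pair the cultures is thus not known, and the main fit did not take them as pairs. ROX1 was called with the block in A880, A880STM1 and A880STM1K against BY4741 (adjusted p = 0.0298, 0.0145 and 0.0399). Over all tested probe sets the calls of A880 against BY4741 went from 764 to 1383 with quantile normalization and 2992 with the 4 arrays alone, and to between 95 and 164 with 1 array left out. Those of A880STM1 against A880 went from 1094 to between 124 and 2283, of A880STM1K against A880 from 2589 to between 1532 and 2634, of A880STM1 against BY4741 from 643 to between 97 and 1951 (967 with the block) and of A880STM1K against BY4741 from 2720 to between 1676 and 2701 with 1 array left out, and those of A880STM1K against A880STM1 from 1925 to 1179 with the 4 arrays alone. All 10 genes were above background on every array.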
